A study of Danio rerio with 12 samples.

Results

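The regions described here were genomic intervals accessible in some zebrafish melanomas and listed in no melanocyte library. ATAC-seq peak lists of 12 libraries were cut to the 57910 strongest intervals each on the 25 numbered chromosomes, which is the length of the shortest list, and overlapping intervals were merged into 192780 regions. A region was a member when the cut lists of 3 to 5 of the 8 melanoma (MA) libraries overlapped it and no line of the 4 complete melanocyte (MC) lists did. There were 6665 members, 3.46% of all merged regions. Of these, 3052 were held by 3 MA libraries (45.8% of members, 1.58% of all merged regions), 2035 by 4 (30.5% and 1.06%) and 1578 by 5 (23.7% and 0.819%), where "held" means present in the cut list. These shares follow from the rule and are given as a description.

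Each MA library came from crestin:EGFP+ cells sorted from a tumour of a fish of genotype BRAFV600E/p53lf/lf/crestin:EGFP. Of the MC libraries, 3 (MC_Het) held mitfa:mCherry+ skin melanocytes of genotype BRAFV600E/+/p53+/lf/mitfa+/-, and 1 (MC_Homo) held such cells of genotype BRAFV600E/p53lf/lf/mitfa+/-. BRAFV600E was driven by the mitfa promoter in all of these fish, so controls carried the oncogene and at least 1 lost p53 copy. The MC fish also carried a mitfa minigene beside the mCherry reporter. The 2 cell groups were sorted on different reporters, and crestin:EGFP selects cells with an active neural crest reporter. All MC libraries and MA4 and MA5 were sequenced in run 2, and MA6 to MA11 in run 3, so absence from MC lists and run cannot be told apart for regions seen in run 3 only. Per the methods, the melanoma cells for ATAC-seq came from 8 fish. The labels do not name the tumour or fish behind each MA library.

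ATAC-seq uses a transposase that inserts sequencing adapters where DNA is not wrapped in nucleosomes, so that promoters and enhancers in use appear as peaks. Tumours started by the same alleles can differ in which enhancers are open, in the number of copies of a chromosome, and in the mixture of cell states within the sorted population. A peak list records a threshold, and a region below it in a library can be weak, undersampled or closed there. The list alone cannot tell these apart.

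Tags behind the lists, computed from the deposited fold and p columns and given in M (1000000 tags), ranged from 6.05 M in MA11 to 11.54 M in MA8, and from 6.42 to 24.62 M in MC. The deepest library, MC_Het5, decided much of the MC absence. Without it the rule gave 13157 members. Among the 19872 regions that 3 to 5 MA libraries held and that did have an MC interval, 6435 (32.4%) had one in MC_Het5 alone and 3765 had one in all 4 MC libraries. The strength of the weakest interval kept, as −log10 p, lay between 5.25 in MA10 and 7.65 in MA8 among MA libraries. Among MC libraries it lay between 3.39 in MC_Homo and 10.7 in MC_Het5.

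The rule divides a continuous range. Of regions with no MC interval, 24114 were held by 1 MA library, 5260 by 2, 1314 by 6, 1078 by 7 and 1083 by all 8. The share of regions without an MC interval was 22.4% among those held by 2 MA libraries, 27.3%, 24.7% and 22.1% among those held by 3, 4 and 5, and 19.0% among those held by 6.

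The libraries took part in the members to unequal degrees. MA6 held 4643 members (69.7%), MA7 4325 (64.9%) and MA8 3913 (58.7%). MA9 held 3180 (47.7%), MA4 2780 (41.7%), MA10 2487 (37.3%), MA5 2189 (32.8%) and MA11 1669 (25.04%). MA6, MA7 and MA8 were thus the most frequent holders, and they were also the 3 deepest MA libraries, with 8.78, 9.38 and 11.54 M tags. MA5 had 7.85 M tags and held fewer members than MA9 and MA10, which had 6.88 and 6.52 M. With every library thinned in a simulation to the shallowest library's tags and cut to 56675 intervals, 6434 regions met the rule and MA6 held 70.2% of them. Only summit pileups of intervals already listed were thinned, and their boundaries and the MC absence stayed as deposited. The simulation therefore cannot show which intervals shallower sequencing would have listed, and the part of depth was not tested.

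**Figure D1:**
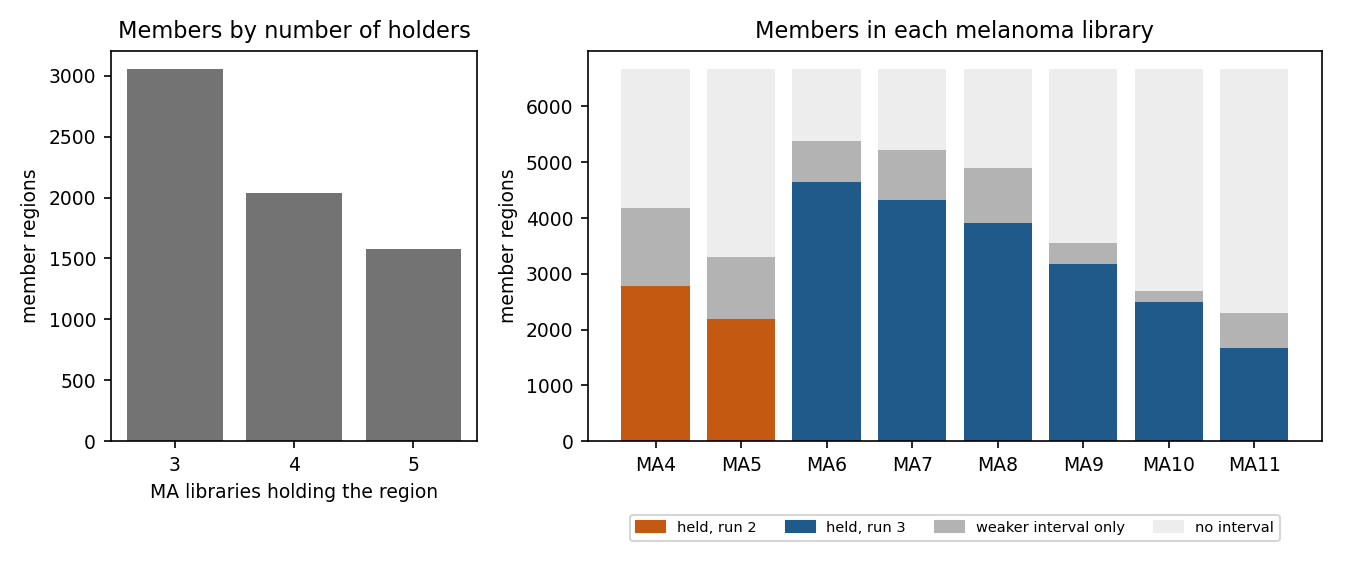
Members by number of holding MA libraries (left) and in each of the 8 MA libraries (right). Right bars stack members held, coloured by sequencing run, members with a weaker interval only (grey) and members with no interval (pale grey). MA6, MA7 and MA8 held 58.7 to 69.7% of the 6665 members, and MA11 held 25.04%.

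The same libraries were less unequal at regions that 3 to 5 MA libraries held and that had an MC interval. There the shares ran from 40.01% in MA11 to 56.1% in MA8, and MA6 held 54.2%. At regions held by only 1 or 2 MA libraries with no MC interval the order differed. MA11 held 26.2% of them, MA10 18.2% and MA9 16.6%, MA6 and MA7 13.5% each, and MA4 the least, 8.80%. MA5 was seventh of the 8 at these regions and at members. MA11 therefore contributed most to intervals seen in 1 or 2 melanomas and least to those seen in 3 to 5.

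All 182 possible sets of 3, 4 or 5 libraries occurred among the members. The most frequent was MA6 with MA7 and MA8 (269 regions, 4.04%), then the same 3 with MA9 (223), MA7 with MA8 and MA9 (210), the 4 former with MA4 (186) and the 4 former with MA10 (185). The sixth was MA4 with MA5 and MA6 (183 regions), which joins both run 2 melanomas with 1 of run 3. No set held more than 4.04% of the members.

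Pairs of libraries are compared by the members held by both as a percent of those held by either. MA6 and MA7 shared 2946 members (48.9%), MA7 and MA8 2671 (48.0%), MA6 and MA8 42.7%, and MA7 and MA9 40.7%. MA4 shared 2077 members with MA6, which was 74.7% of all that MA4 held, and MA5 likewise had 73.1% of its members in common with MA6. MA4 and MA5, the pair from run 2, shared 1079 (27.7%). The lowest values were 12.9% for MA4 with MA11 (510 members), 13.5% for MA5 with MA10 and 13.9% for MA5 with MA11. Membership of a pair depends on how many members each library held, and libraries that hold more share more.

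**Figure D2:**
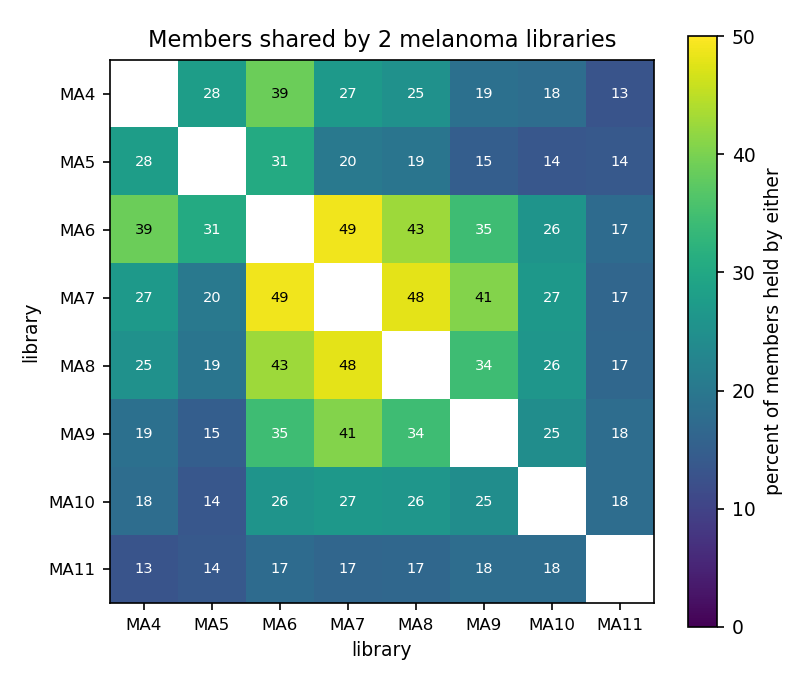
Percent of members held by both libraries among those held by either, for each pair of the 8 MA libraries. The pairs among MA6, MA7 and MA8 reached 42.7 to 48.9%, and MA11 with MA4 had the lowest value, 12.9%.

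By run, 2775 members (41.6%, 95% Wilson interval 40.5 to 42.8) were held by run 3 libraries alone, 2811 (42.2%) had 1 of the 2 run 2 melanomas among their holders, and 1079 (16.2%) had both. For regions of 3 to 5 holders with an MC interval the shares were 36.4% (35.7 to 37.0), 41.8% and 21.8%. By number of holders, run 3 alone accounted for 51.8% of members and 44.1% of regions with an MC interval at 3 holders, 38.7% and 36.5% at 4, and 25.9% and 24.9% at 5, so the gap lay mostly at 3. Intervals cover counting error only, and neighbouring regions are not independent. The part of the sequencing run in this was not tested, since every MC library was of run 2. The share depends on which libraries are counted. It was 63.2% without MA4, 54.2% without MA5 and 29.4% without MA7.

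The complete MA lists show what lay below the cut. Only 1138 members had an interval in exactly 3 complete MA lists, 1796 in 4, 2032 in 5, 1221 in 6, 402 in 7 and 76 (1.14%) in all 8. For 4126 members (61.9%) at least 1 melanoma that did not hold the region had a weaker interval there, and for 2539 (38.1%) none did. A stricter description compares pileups, the number of overlapping extended tags at the summit per M tags. The smallest pileup a library could list was 0.520 to 0.767 per M tags in MA libraries. In 655 members (9.83%) no melanoma outside the holders had an interval, and the weakest holder was at least 2 times above the floor of every one of them. Across members the median holder pileup was 1.69 per M tags, and the median ratio of the strongest holder to the weakest was 1.91. These counts and pileups were not taken for other classes of region, so they do not show a trait particular to members.

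Members that a library did not hold often had a weaker interval in its complete list. In the library order MA4 to MA11, the percentages were 36.0, 24.7, 36.3, 38.0, 36.0, 10.6, 4.81 and 12.7. For regions that 6 to 8 MA libraries held without an MC interval they were higher in each library, at 56.2, 41.9, 50.8, 58.8, 56.6, 21.6, 11.8 and 25.3. For all other regions a library did not hold, they were 13.7, 11.3, 8.67, 10.7, 11.4, 3.28, 1.75 and 7.42. The means were 24.9 ± 13.7% at members and 8.54 ± 4.19% at all other regions (SD, n = 8), a difference of 16.3 percentage points over the 8 libraries, 15.8 in run 3 and 17.8 in run 2. The percentage rose with the number of holders, which the rule sets, so this difference is a description and carries no test. MA9, MA10 and MA11 had the fewest weaker intervals. The complete lists of MA9 and MA10 ended soonest after the cut, at 66396 and 62916 intervals against 79207 to 93577 in the other MA libraries.

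The comparison with regions in the same range of 3 to 5 holders is less bound to the rule. Holder numbers within that range were not matched. Of the 19872 regions with an MC interval, 8136, 6188 and 5548 had 3, 4 and 5 holders. Of the 6665 members, 3052, 2035 and 1578 did. At regions that 3 to 5 MA libraries held and that had an MC interval, the mean was 26.3 ± 12.6%, and the difference from members, −1.38 points, did not pass the exact sign-flip test (p = 0.328, adjusted p = 0.410 over 5 tests, n = 8). Run 2 and run 3 melanomas did not differ detectably either, at 30.3 ± 7.94% (n = 2) and 23.1 ± 15.3% (n = 6), with an exact two-sided permutation p of 0.571 where 28 splits allow no p below 0.0357.

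Merged members had a median width of 253 bp (interquartile range 193 to 326, extremes 101 and 854), against 348 bp for regions that 6 to 8 MA libraries held without an MC interval and 136 bp for those held by 1 or 2. Regions of 3 to 5 holders with an MC interval had a merged median of 262 bp, so merged members were narrower than that class. Because merging lengthens a region with each list added, widths were also compared on single intervals. The mean over libraries of the median interval width was 179 ± 23.6 bp at members and 245 ± 33.6 bp at regions of 6 to 8 holders. Members were narrower by 66.5 bp on average and in each library. This is a description, since members also ranked lower than those regions in strength, on which the rule acts: the median rank in MA6 was 36225 at members and 18486 at regions of 6 to 8 holders. Against regions of 3 to 5 holders with an MC interval (167 ± 25.3 bp), single intervals at members averaged 12 bp wider. In single libraries they were wider by 1 to 31 bp. The exact sign-flip permutation test of the mean gave p = 0.0078, the smallest 8 libraries allow (adjusted p = 0.0130, n = 8). The merged medians went the other way. Wider intervals can overlap more lists, so the rule may bear on this comparison too. The adjustment counts 2 tests whose direction the rule bears on, which lowers the adjusted p. Libraries share regions, so the 8 differences are not independent and equal signs are less telling than the p-value implies. The part of strength in this difference was not tested. The excess was 28.5 bp in run 2 and 6.5 bp in run 3. Intervals within 1 bp of 120 bp made up 21.6% and 21.0% of the cut lists of MA4 and MA5 but 5.99 to 8.75% of those of run 3. At members they were fewer, at 2.44% in MA4, 2.91% in MA5 and 2.72 to 5.01% in run 3 libraries. Their part in the width difference between members and regions with an MC interval was not tested.

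The median distance to the nearest region with an MC interval was 2345 bp. Of the members, 27.9% lay within 1 kb of one, 75.8% within 5 kb and 5.60% beyond 20 kb. Regions of 6 to 8 holders gave 24.0%, 78.2% and 3.05%, with a median of 2378 bp, and regions of 1 or 2 holders 29.4%, 75.7% and 3.81%, with a median of 2313 bp. The median for members lay between those of the other classes. Neighbouring members were a median of 101 kb apart (interquartile range 34.0 to 255 kb), and the longest gap was 7.38 Mb.

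Among windows of 1 Mb, 1282 of 1361 (94.2%) contained a member, with a median of 5, and 139 contained at least 10. The densest window was the first 1 Mb of chromosome 14, with 19 members among 317 regions. MA6 held 15 of the 19, MA7 and MA9 14 each, and MA5 only 1. In the first 1 Mb of chromosome 12, with 18 members among 307 regions, MA7 held 16 and MA9 13, while MA6 held 7. From 24 to 25 Mb on chromosome 19 there were 17 members among 185 regions, of which MA6 held 13, MA4 and MA8 11 each, and MA5 and MA11 2 each. The adjoining window, 25 to 26 Mb, had 16 members among 207 regions, led by MA8 with 13 and MA7 with 12. From 4 to 5 Mb on chromosome 4, MA8 held 13 of 16 members, MA4 and MA6 11 each, and MA10 only 2. MA7 and MA9 were among the leading holders in the first windows of both chromosome 12 and chromosome 14, and MA6 led only in the latter.

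Every chromosome had members, from 155 on chromosome 25 to 379 on chromosome 5 (5.69% of all). Chromosomes 9 and 19 had 361 each and chromosome 2 had 360. Relative to the merged regions each chromosome carries, members were most frequent on chromosome 23 (4.51% of its regions) and least frequent on chromosome 16 (2.47%). The share of members over the share of merged regions was taken on the log2 scale. It was 0.38 on chromosome 23, 0.30 on chromosome 22 and 0.29 on chromosome 18, and −0.48 on chromosome 16, −0.42 on chromosome 15 and −0.35 on chromosome 3. Regions that 6 to 8 MA libraries held without an MC interval departed in the same direction on each of these chromosomes. Chromosome 23 carried 4.92% of them, 4.79% of members and 3.67% of merged regions. Chromosome 16 carried 2.33%, 2.85% and 3.99%. Chromosomes 4, 6 and 20 differed, with members above the share of merged regions and regions of 6 to 8 holders below it. The named departures were thus not particular to members.

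Which melanoma held them changed from chromosome to chromosome. MA6 was the most frequent holder on 13 chromosomes, MA7 on 7 and MA8 on 5. MA11 was the least frequent on 14, MA5 and MA10 on 4 each, MA4 on 2 and MA9 on 1. On chromosome 13, MA7 held 301 of 345 members (87.2%, 95% Wilson interval 83.3 to 90.4), against 64.9% genome-wide. On chromosome 16, MA4 held 136 of 190 (71.6%), against 41.7% genome-wide, and MA10 held 17 (8.95%), against 37.3%. On chromosome 21, MA6 held 85.1% and MA11 held 10 of 188 (5.32%, interval 2.91 to 9.51). MA11 held 113 of 236 members of chromosome 10 (47.9%). MA5 held 26 of 360 members on chromosome 2 (7.22%, interval 4.98 to 10.4), and MA10 24 of 274 on chromosome 4 (8.76%, interval 5.96 to 12.7). MA4 held 15.9% and MA10 65.9% on chromosome 1. Holding chose the members, and the limit of 3 to 5 holders binds the shares together, so these values are descriptions. The Wilson intervals cover counting error only. Regions within a library are not replicates, so the intervals are no test against the genome-wide shares.

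**Figure D3:**
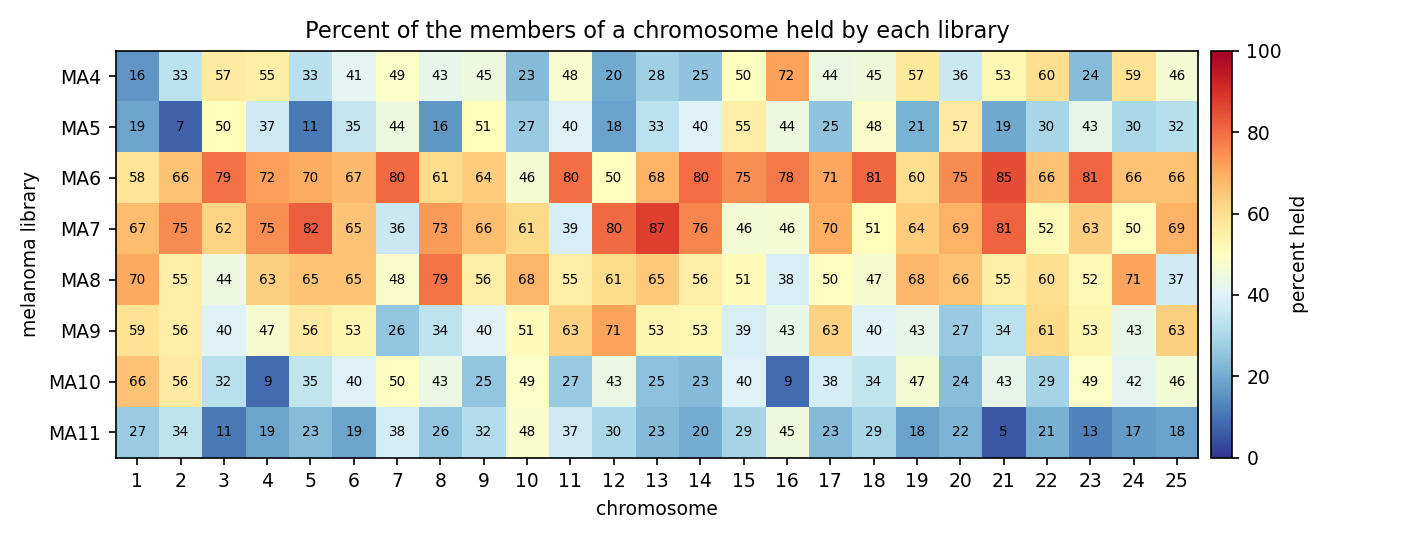
Percent of each chromosome's members held by each MA library (rows, libraries; columns, chromosomes 1 to 25; numbers are percents). Chromosome 21 stands at 5.32% for MA11 and 85.1% for MA6, and chromosome 13 reaches 87.2% for MA7.

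The differences between chromosomes ran along with each library's signal at regions that are not members. For each library and chromosome, the share of its held regions with an MC interval that lay on the chromosome was taken relative to the mean of the 8 MA libraries. Members have no MC interval, so the regions differ. Across the 25 chromosomes this share correlated with the log2 share of members held, with Pearson's r from 0.91 to 0.96 by library (mean 0.931, SD 0.0199). These are descriptions over 25 chromosomes of the same library, which share its depth and its cut, and the shares of all libraries at members are bound together by the limit of 3 to 5 holders.

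A second comparison used only the 8298 regions in the cut lists of all 12 libraries, 233 to 495 per chromosome, where presence does not vary and only pileup does. Its result depended on the reference, and both are given. The first reference tried was the mean of the 4 MC libraries, and r with member holding was then 0.55 for MA4, 0.71 for MA5, 0.17 for MA6, 0.67 for MA7, 0.68 for MA8, 0.70 for MA9, 0.85 for MA10 and 0.56 for MA11. After these values were seen the mean of the 8 MA libraries was used instead, the reference of the comparison above, and r became 0.92, 0.87, 0.81, 0.90, 0.91, 0.92, 0.91 and 0.84 in the same order. All 8 were positive under either reference, but for MA6 the relation was weak against MC. The MA reference has the same constraint as the holding shares, since a library can only be high relative to the others.

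With the MA reference, the median log2 pileup on chromosome 13 was 0.62 above the MA mean in MA7. It was 0.49 on chromosome 16 in MA4, −0.53 on chromosome 16 and −0.39 on chromosome 4 in MA10, −0.58 on chromosome 21 and 0.36 on chromosome 10 in MA11, and −0.38 on chromosome 2 in MA5. Against MC the same library and chromosome pairs gave 0.98, 0.16, −0.88, −1.06, −0.44, 0.88 and −0.44. The direction was the same in these 7 pairs under both references, but most sizes were not. They are the extremes of holding, and over all 200 pairs of library and chromosome the sign differed between references in 56. On chromosome 4, MA4 went from 0.19 to −0.65 and MA5 from 0.21 to −0.32 when MC was the reference.

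**Figure D4:**
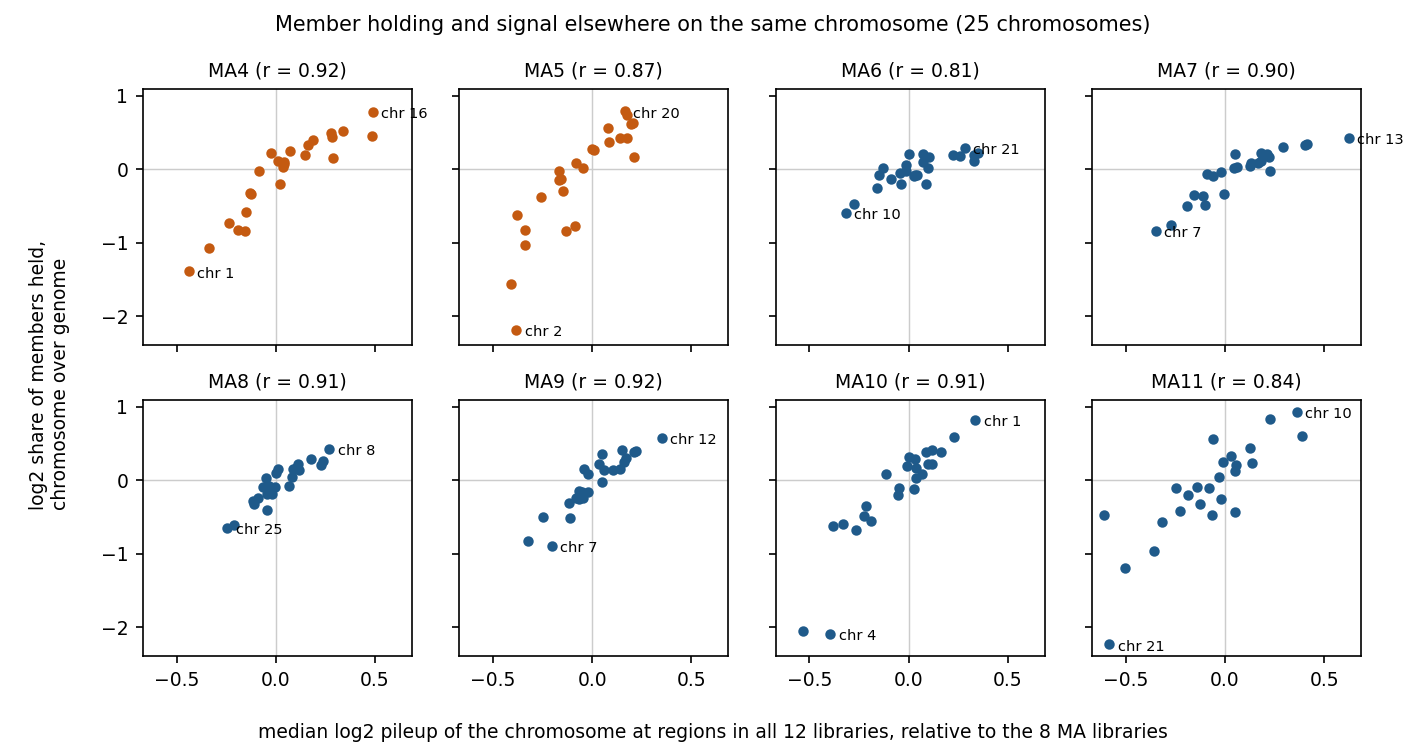
Log2 share of a chromosome's members held (vertical) against the median log2 pileup of the chromosome at regions in all 12 libraries relative to the mean of the 8 MA libraries (horizontal), 1 panel per library and 1 point per chromosome. Pearson's r lies between 0.81 and 0.92 with this reference and between 0.17 and 0.85 with the MC mean, which was tried first and is not drawn.

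The SD over chromosomes of the log2 share held ranged from 0.22 in MA6 to 0.75 in MA5, beside 0.24 for the log2 share of members over merged regions. It was above the latter in 7 of 8 libraries, MA6 being below. In 7 of 8 libraries the SD of the log2 share held was larger at members than at regions of 3 to 5 holders with an MC interval, MA6 being the exception. The gap was small in MA7 (0.340 against 0.322) and MA8 (0.273 against 0.263). In percentage points the range was wider at members in MA6 as well, 38.9 against 35.1. Members were fewer, 6665 against 19872 regions, and the part of this was not tested. Changes within chromosomes were taken as differences in percentage points, a measure unlike the SDs and ranges above. With each chromosome split at its midpoint, the median change was 4.57 percentage points over the 200 pairs of library and chromosome, and none exceeded 30. The largest was in MA6 on chromosome 6, where it held 55.9% of 143 members before the midpoint and 78.3% of 152 after it. Next came MA8 on chromosome 4 (66.7% of 225, then 46.9% of 49) and MA10 on chromosome 23 (39.0% of 159, then 58.1% of 160). The choice to split chromosomes was made after the chromosome values were seen.

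Pairs of members on one chromosome also had more similar holders than pairs on different chromosomes. The mean share of holders in common was 42.9% for members within 10 kb of each other, 41.3% at 50 to 200 kb, 39.6% beyond 5 Mb and 36.9% on different chromosomes. Identical sets made up 2.62% of the pairs within 10 kb and 1.304% of the pairs on different chromosomes. Likeness was thus higher within a chromosome at every distance and highest among close pairs.

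Single members showed how exclusive a region could be. They were chosen by their mean rank among their holders, so the values are descriptions. Positions are given in GRCz11, the assembly named in the methods, which was not checked against a genome sequence. On chromosome 2, 11915453 to 11915646, pileup per M tags was 11.7 in MA6, 9.28 in MA7 and 6.75 in MA10. No other melanoma listed an interval there, and the weakest holder was 9.29 times the highest floor of the rest. On chromosome 23, 36079427 to 36079925, MA7 (15.8) and MA9 (14.1) were high and MA8 (2.95) lower, again with no interval elsewhere. On chromosome 6, 54945301 to 54945706, MA6 reached 16.6 and MA7 11.1, while MA5 had 3.31 and MA10 2.30. Holders of one region could thus differ several-fold.

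Others were more even or had weaker intervals outside the holders. On chromosome 9, 12701562 to 12701948, pileup was 11.2 in MA6, 8.21 in MA7, 5.55 in MA8 and 5.81 in MA9, with none in the other 4. This was also the best-ranked member of the set of those 4 libraries. On chromosome 20, 44761040 to 44761579, MA7 had 10.8, MA9 4.94, MA10 4.29 and MA8 3.73. A second region of chromosome 20, 12776526 to 12776853, joined both runs, with 8.28 in MA5, 5.13 in MA6 and 1.82 in MA11. There MA4 (0.634) and MA7 (0.746) listed weak intervals, so the region was not absent from them.

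Regions of 5 holders included 2 on chromosome 22. At 25554070 to 25554287 pileup was 7.29 in MA4, 6.37 in MA5, 5.11 in MA8, 3.64 in MA6 and 3.34 in MA9. At 6674826 to 6675387 it was 8.31 in MA6, 5.39 in MA4, 5.38 in MA9, 4.94 in MA8 and 4.37 in MA7. Neither had an interval in MA10 or MA11. On chromosome 24, 25338846 to 25339242, the holders were MA6 to MA10 with 4.14 to 8.67, and MA4 (1.27) and MA5 (0.892) had weaker intervals. This last region was thus held by run 3 libraries alone yet also listed in both run 2 melanomas.

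The remaining named regions followed the same range. Those on chromosome 19 were 16213550 to 16213951 (MA4, MA6, MA7, MA8 and MA9, 2.18 to 9.35) and 7662967 to 7663303 (MA6, MA8, MA9 and MA10, 3.55 to 5.83). MA5 had a weaker interval at the former (0.637) and MA4 at the latter (1.11). On chromosome 17, 25248534 to 25248861, MA9 had 6.83, MA6 4.78 and MA7 3.41, and MA4 a weaker 1.27. The best-ranked member of the most frequent set, MA6 with MA7 and MA8, lay on chromosome 14, 34685134 to 34685306, at 5.01, 4.69 and 2.86, with 1.27 in MA4. MA11 was a holder of 1 of the 13 named regions.

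**Figure D5:**
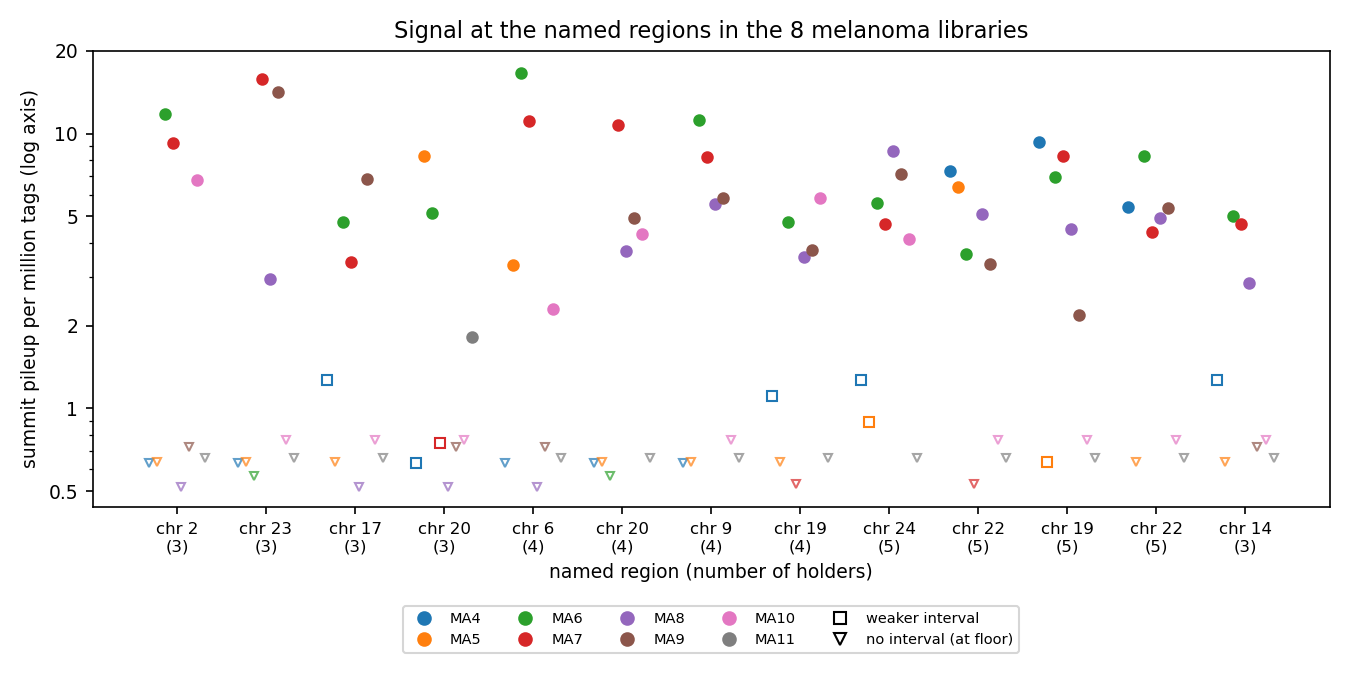
Pileup per M tags at the 13 named members in each MA library, on a log axis, with held and weaker intervals marked. Values of holders run from 1.82 to 16.6, and those of weaker intervals from 0.634 to 1.27.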

How the data were processed

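ATAC-seq was measured in 12 libraries from up to 50000 sorted cells each. Per the methods, the authors aligned reads to GRCz11, kept mapping quality of at least 30 and called peaks per library with MACS2 (shift −50, extension 100, q below 0.05). The deposited narrowPeak columns used were the fold enrichment ratio, the −log10 p-value and the −log10 q-value. No counts were used. Tags per library and pileups were solved from the deposited fold and −log10 p values under MACS2's Poisson model with 1 added to pileup and background, and at least 99.998% of pileups came out whole within 0.05. Duplicate lines of an interval were reduced to the strongest.

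Detection chose the members and is a description. Library-level differences were tested with exact permutation tests and adjusted over 5 tests (Benjamini-Hochberg). The p-values of 2 of these, weaker intervals against all other regions and width against regions of 6 to 8 holders, are not printed because the rule bears on their direction. They stay in the adjustment, which lowers the adjusted p-values printed for the 2 tests against regions with an MC interval. Members, lists and rules were chosen with earlier results of these data known. Chosen after seeing the data were: the 2 tests against regions with an MC interval, thinning, distances to MC regions, the count of holders 2 times above the floor, the split of chromosomes at their midpoint, and the comparison at regions in all 12 libraries. For that comparison the MC mean was used first and the MA mean was put in its place after the MC values were seen, and both are reported.

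Named regions were, for 3, 4 and 5 holders, the 4 members of best mean rank, the best of the 3 most frequent sets, and the 5 densest windows of 1 Mb. Promoter, motif and gene list steps need a GRCz11 annotation or genome and were not run, and no sequence is shown. Replicates are libraries, and p-values measure only their spread. Libraries share regions, so differences taken over libraries are not independent of one another. Statistics were checked on simulated data. Python 3.11.15, numpy 2.4.6, pandas 2.3.3, scipy 1.17.1 and matplotlib 3.10.9 were used.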

Additional observations from a re-analysis of the deposited data

Results flagged for a closer look

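On chromosome 7, MA6 held 80.2% of the members, and on chromosome 18 it held 80.7%, each set apart from the other 7 MA libraries by more than Dixon's 95% critical value. Among 32 measures examined, 2 were set apart, which is near the rate of about 1 in 20 that chance gives. Holding chose the members, and the limit of 3 to 5 holders binds the 8 shares together, so the critical value is only a guide. MA6 was also the most frequent holder genome-wide, at 69.7%. Both values are descriptions.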

How the results depend on the processing

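The number of members, 6665, fell to 3893 with the 40000 strongest intervals and to 1378 with 20000, and rose to 10514 with complete lists and to 14204 when absence was asked of the cut MC lists only. Leaving out 1 library gave 6232 to 13157, the highest without MC_Het replicate 5. The share held by MA6 was 73.3% (40000), 76.1% (20000), 66.6% (complete lists), 72.7% (50% of the region covered), 68.2% (without intervals within 1 bp of 120 bp), 66.8% (cut MC lists) and 79.2% (run 3 only), and 66.8 to 80.3% leaving out 1 library. MA6 was the most frequent holder in 20 of 22 alternatives and MA11 the least frequent in 20. The share held by run 3 alone was 47.2%, 53.0%, 29.9%, 39.6%, 34.2% and 43.5% under the first 6 of these, 42.8% with −log10 q of at least 3, and 29.4 to 63.2% leaving out 1 library. The run difference in weaker intervals turned to −0.509 points with 20000 and −3.14 without narrow intervals (0.984 to 12.6 leaving out 1 library). The mean chromosome r fell to 0.816 with 20000. The causes were not tested. The difference in weaker intervals between members and other regions was 15.7 to 20.05 points leaving out 1 library, 29.05 with 40000 and 33.4 with 20000, where the cut leaves more intervals below it. The width difference from regions of 6 to 8 holders was −70.6 to −66.4 bp leaving out 1 library, −38.6 with 20000 and −80.6 with run 3 only. Complete lists give no weaker intervals, and run 3 only gives no run share.

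The reference of the signal at regions in all 12 libraries, chosen after seeing the data, moved r for MA6 from 0.17 (MC) to 0.81 (MA) and turned the sign of 56 of 200 library and chromosome values. Alternatives for promoter distance and motif window were not run. No paired analysis was possible because no test compared MC with MA. Depth limits absence: a region under 0.520 to 0.767 pileup per M tags could not be listed.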

Other observations

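The peak names inside the deposited lists carry prefixes that the labels do not explain. They read CK3_GFP in MA4 and MA5, Sort_unpig in MA6, MA7 and MA8, and Sort_pig in MA9, MA10 and MA11. MA6, MA7 and MA8 were also the most frequent set of holders (269 members), and the pairs among them shared the most members (42.7 to 48.9%). The pairs among MA9, MA10 and MA11 shared 17.8 to 24.6%. With MA6, MA7 and MA8, MA9 shared 34.4 to 40.7%, MA10 25.8 to 26.7% and MA11 16.6 to 17.4%. Sharing thus did not follow the prefix throughout. MA6, MA7 and MA8 were the deepest MA libraries as well, so prefix and depth cannot be told apart for them. The paper describes its tumours as diverse in pigmentation status and points to a supplementary table for it, which was not used here. The labels do not tie that status to single libraries, so the prefixes were not read as pigmentation and no test was made by prefix.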
